A study of Mus musculus with 6 samples.

Results

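Crystallin genes and the lens membrane gene Mip were measured in retinas of Emcn-/- mouse pups and their Emcn+/+ littermates, with 3 poly-A RNA libraries per genotype. The pups were 15 days old and all had gone through oxygen-induced retinopathy. The genes were chosen by name, and all 10 were found once each among the 28627 genes of the table. They were the alpha crystallins Cryaa and Cryab, the acidic beta crystallins Cryba1, Cryba2 and Cryba4, the basic beta crystallins Crybb1, Crybb2 and Crybb3, the gamma crystallin Crygs, and Mip. Endomucin, the product of Emcn, is a mucin-like glycoprotein on endothelial cells. In the retinopathy model high oxygen stops retinal capillary growth, and the return to room air leaves the retina hypoxic. The labels name neither the strain, the sex nor how the allele was made, and do not say whether each library came from 1 animal, so p-values measure the spread between these libraries.

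Crystallins are the main soluble proteins of the lens, where they are packed densely enough to refract light. Alpha crystallins are small heat shock proteins that hold unfolding proteins in solution, and the beta and gamma crystallins are structural proteins of a shared fold. Mip, also called aquaporin 0, is the most abundant membrane protein of lens fibre cells and forms water channels and cell contacts. Cryab is also made outside the lens, including in retinal glia and pigment epithelium, and several crystallin genes are known to be induced in injured or stressed retina. In the lens, crystallin genes are switched on together by factors such as Pax6, the large Maf proteins, Sox1, Prox1 and Hsf4.

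Values are normalised reads, which are read counts divided by 1 scaling factor per library and are not adjusted for gene length. Libraries held 14865868 to 17087621 reads in genes, and 1 read was worth 0.924 to 1.09 normalised reads. Emcn itself averaged 2.54 ± 1.86 normalised reads in Emcn-/- libraries and 91.5 ± 10.05 in Emcn+/+ libraries (SD, n = 3 each), so the genotype labels were borne out in every library. The retinal identity of the samples was clear in all of them: the rod channel gene Cnga1 stood at 15680.3 to 16625 normalised reads in Emcn-/- libraries and at 13805 to 15446 in Emcn+/+ libraries. Emcn+/+ replicate 1 stood apart from the other 5 libraries in lens genes, and results on the genotypes are given with and without it.

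The promoters of genes that were high together in 1 library are shown to let their shared letters be seen. They are taken from RefSeq on GRCm38.p6 and run from 250 bases before the transcription start to 50 bases after it, 5′ to 3′ on the gene's strand. Capitals mark the core of the Maf half-site, TGCTGA, or its reverse complement TCAGCA. Cryaa lies on the plus strand (chr17:31677681-31677980), Cryba1 on the minus strand (chr11:77725244-77725543), Cryba4 on the minus strand (chr5:112252469-112252768), Crybb1 on the plus strand (chr5:112255570-112255869) and Mip on the plus strand (chr10:128225560-128225859).
Cryaa: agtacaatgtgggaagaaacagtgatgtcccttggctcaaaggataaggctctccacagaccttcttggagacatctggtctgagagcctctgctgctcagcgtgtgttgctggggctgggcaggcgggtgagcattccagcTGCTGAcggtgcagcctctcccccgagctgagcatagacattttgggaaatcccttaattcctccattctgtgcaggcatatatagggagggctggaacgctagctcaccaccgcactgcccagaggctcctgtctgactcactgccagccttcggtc
Cryba1: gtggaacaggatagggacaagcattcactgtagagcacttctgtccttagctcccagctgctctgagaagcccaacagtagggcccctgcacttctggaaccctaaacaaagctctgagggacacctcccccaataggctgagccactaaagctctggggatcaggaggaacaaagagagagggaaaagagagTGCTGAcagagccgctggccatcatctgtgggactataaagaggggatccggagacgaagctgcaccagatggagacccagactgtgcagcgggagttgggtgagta
Cryba4: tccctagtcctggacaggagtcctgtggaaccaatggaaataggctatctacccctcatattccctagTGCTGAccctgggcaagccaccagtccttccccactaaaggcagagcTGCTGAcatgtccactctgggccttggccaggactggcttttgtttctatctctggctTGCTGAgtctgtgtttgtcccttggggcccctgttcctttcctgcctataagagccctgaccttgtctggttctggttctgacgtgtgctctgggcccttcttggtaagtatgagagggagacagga
Crybb1: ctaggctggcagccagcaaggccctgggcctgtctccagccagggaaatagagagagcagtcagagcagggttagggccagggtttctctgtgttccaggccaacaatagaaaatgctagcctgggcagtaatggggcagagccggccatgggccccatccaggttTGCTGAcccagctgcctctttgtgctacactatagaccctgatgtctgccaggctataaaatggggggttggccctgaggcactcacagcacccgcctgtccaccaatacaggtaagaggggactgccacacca
Mip: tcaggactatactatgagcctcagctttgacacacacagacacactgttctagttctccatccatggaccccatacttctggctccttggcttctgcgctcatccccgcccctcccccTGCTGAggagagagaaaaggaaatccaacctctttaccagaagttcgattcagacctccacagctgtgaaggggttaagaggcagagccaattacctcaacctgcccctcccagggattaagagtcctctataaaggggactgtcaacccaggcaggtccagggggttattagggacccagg

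A promoter was found for 9 of the 10 genes, all but Cryab. The Maf half-site core was present on either strand in 8 of the 9, against 19.5% of 32817 promoter windows of the same length. The Cryba4 window held 3 copies and the Crybb2 window held 0. The core of the heat shock element, GAANNTTC, which is its own reverse complement, was in 0 of the 9 and in 7.86% of all windows. Such matches are letters in a window and were not tested as binding sites.

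The genes lie at 8 places in the genome (GRCm38, GENCODE M21). Cryba4 (chromosome 5, 112246493 to 112252518, minus strand) and Crybb1 (chromosome 5, 112255815 to 112269585, plus strand) point away from each other 3297 bp apart. Crybb2 (chromosome 5, 113058258 to 113070117) and Crybb3 (chromosome 5, 113075839 to 113081584) follow each other on the minus strand with 5722 bp between them. Cryab (chromosome 9, 50751325 to 50756636, plus strand) overlaps the small heat shock protein gene Hspb2 on the opposite strand, and Hspb2 had 1.04 to 7.39 normalised reads in Emcn-/- libraries and 3.28 to 11.4 in Emcn+/+ libraries. Cryba1 (chromosome 11, 77718615 to 77725283) overlaps Nufip2, and Mip (chromosome 10, 128225838 to 128231812) overlaps the predicted gene Gm26847, each on the opposite strand. Cryaa and Crybb2 likewise overlap the predicted genes AC090881.2 and Gm43247 on the opposite strand. Since it is not known whether the libraries keep strand, reads in these overlaps cannot be assigned with certainty.

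Emcn+/+ replicate 1 held far more reads of every gene of the set than any other library. The 10 genes took 0.00489% to 0.00748% of the reads of Emcn-/- libraries, against 0.467%, 0.0038% and 0.00537% of those of Emcn+/+ replicates 1, 2 and 3. The make-up differed too: Cryab gave 71.5% to 83.7% of the set's reads in Emcn-/- libraries, against 12.5%, 88.8% and 91.4% in Emcn+/+ replicates 1, 2 and 3. Across 13732 genes with at least 50 normalised reads in some library, 23 (0.167%) were over 10 times higher in Emcn+/+ replicate 1 than in any other library. All 10 genes of the set were among the 23, another 12 were genes of the lists of other lens genes and crystallin relatives, and the remaining 1 was Sox1ot, the transcript that overlaps the lens factor gene Sox1. Emcn+/+ replicate 3 also stood apart by this rule, in other genes. It had 12 (0.0874%), among them Xist, Ifit1, Isg15 and Mx1, and 0 of them were lens genes. Each of the remaining libraries had 0.

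**Figure D1:**
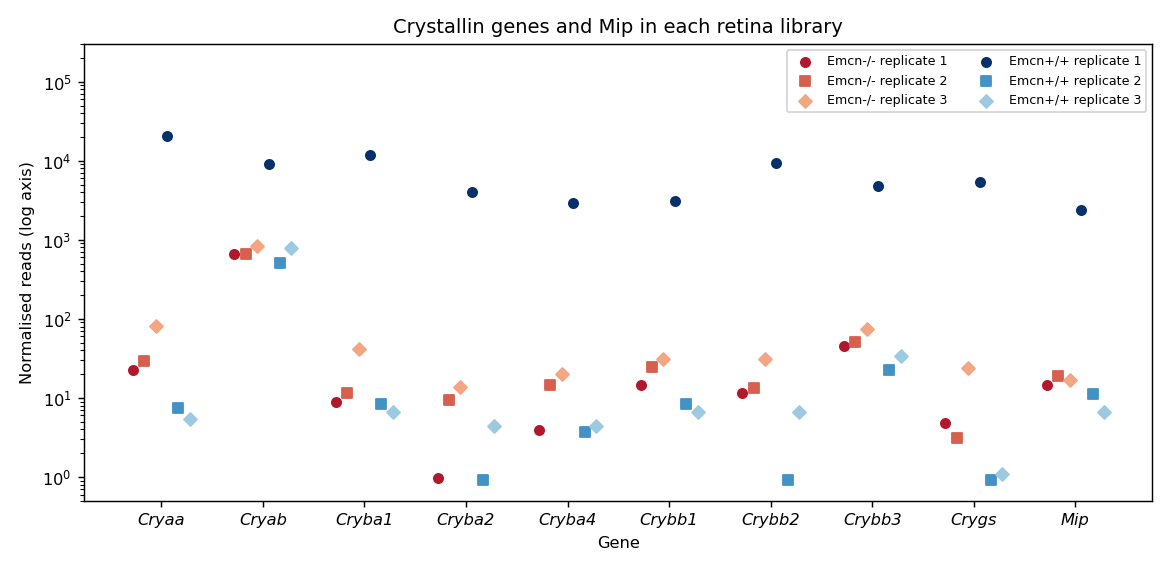
Normalised reads (log axis) of the 10 genes in each of the 6 libraries, 1 point per library, with Emcn-/- left of Emcn+/+ for each gene. Emcn+/+ replicate 1 lies above all other libraries for every gene, from 10.9 times the highest other library for Cryab to 297 times for Crybb2.

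Of the alpha crystallins, Cryaa (chromosome 17, 31677807 to 31681733, plus strand) is the form largely restricted to the lens. It had 22.4, 29.0 and 82.3 normalised reads in Emcn-/- libraries, against 20468, 7.41 and 5.46 in Emcn+/+ libraries. Apart from the single library at 20468, every Emcn-/- value lay above both Emcn+/+ values. Cryab, the form made in many tissues, had 654, 659.7 and 846 normalised reads in Emcn-/- libraries, against 9221, 506 and 796 in Emcn+/+ libraries. Leaving out the library at 9221, the genotypes overlapped, and the 5 values spanned 1.67-fold, the narrowest span of the set.

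The acidic beta crystallins were likewise highest in Emcn+/+ replicate 1. Cryba1 had 8.76, 11.4 and 41.6 normalised reads in Emcn-/- libraries, against 11833, 8.34 and 6.55 in Emcn+/+ libraries. Cryba4 had 3.89, 14.5 and 20.3 in Emcn-/- libraries, against 2928, 3.71 and 4.37 in Emcn+/+ libraries, so that outside Emcn+/+ replicate 1 its genotypes overlapped. Cryba2 (chromosome 1, 74889934 to 74893143) was near the limit of detection, with 1, 9 and 15 reads in Emcn-/- libraries and 1 and 4 reads in Emcn+/+ replicates 2 and 3, while Emcn+/+ replicate 1 had 3846 reads.

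Among the basic beta crystallins, Crybb2 had 11.7, 13.5 and 31.4 normalised reads in Emcn-/- libraries, against 9337, 0.927 and 6.55 in Emcn+/+ libraries. Crybb1 had 14.6, 24.9 and 31.4 in Emcn-/- libraries, against 3140, 8.34 and 6.55 in Emcn+/+ libraries. Both were higher in all 3 Emcn-/- libraries than in Emcn+/+ replicates 2 and 3. Crybb3 kept the highest level of the beta crystallins outside Emcn+/+ replicate 1, with 45.8, 50.8 and 74.9 normalised reads in Emcn-/- libraries, against 4804, 22.2 and 33.9 in Emcn+/+ libraries. It was also the beta crystallin with the smallest excess in Emcn+/+ replicate 1, at 64.2 times the highest other library.

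Crygs (chromosome 16, 22805203 to 22811577), a gamma crystallin of mature lens fibres, had 4.87, 3.11 and 24.0 normalised reads in Emcn-/- libraries, against 5412, 0.927 and 1.09 in Emcn+/+ libraries. The last 2 values are 1 read each, below the 3 reads that a count of 0 allows. Mip had 14.6, 18.7 and 16.6 normalised reads in Emcn-/- libraries, against 2404, 11.1 and 6.55 in Emcn+/+ libraries. Without Emcn+/+ replicate 1, its values spanned 2.85-fold, less than every other gene of the set but Cryab.

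Per kilobase of exon, the order of the genes differed between Emcn+/+ replicate 1 and the rest. In Emcn+/+ replicate 1, a single library with no spread of its own, Cryaa led with 9859.5 normalised reads per kb, followed by Cryba1 with 7424, and Mip was last with 1121. In the other 5 libraries Cryab led, with 342 to 572 normalised reads per kb, and did not overlap any other gene. Crybb3 came next by its median (9.53 to 32.1 per kb), then Crybb1 (6.65 to 31.9 per kb) and Cryaa (2.63 to 39.6 per kb), and these neighbours overlapped widely. Crygs and Cryba2 had the lowest medians, at 3.56 and 3.66 normalised reads per kb.

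Other lens genes were high in the same library. Of 19 other lens genes in the table, 16 were more than 2 times higher in Emcn+/+ replicate 1 than in any other library. Crygd, a lens fibre gamma crystallin and the one with the highest mean of that list, had 4.87, 3.11 and 16.6 normalised reads in Emcn-/- libraries, against 2602, 0.927 and 0 in Emcn+/+ libraries. The gamma crystallin genes Cryga to Crygf are close copies that can share reads, so they were also summed. Their sum was 27, 20 and 109 reads in Emcn-/- libraries, against 7165, 1 and 0 reads in Emcn+/+ libraries. The lens epithelium factor gene Foxe3, picked here after its values were seen, had 0, 0 and 0 reads in Emcn-/- libraries, against 109, 0 and 0 reads in Emcn+/+ libraries. The beaded filament gene Bfsp1, with the smallest p of that list, was at 8.76, 16.6 and 12.9 normalised reads in Emcn-/- libraries, against 290.4, 24.1 and 13.1 in Emcn+/+ libraries.

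Summed markers of other tissues next to the retina were not higher in Emcn+/+ replicate 1 than in the Emcn-/- libraries, but among Emcn+/+ libraries the pigment epithelium sum was highest in it. Of single genes, 0 of the pigment epithelium list and 1 of the ciliary body and iris list (Msx1) were highest in it. Some were above single Emcn-/- libraries, such as Mlana with 30.1 normalised reads, against 13.6, 17.6 and 117 in Emcn-/- libraries. Pigment epithelium markers (13 genes) summed to 9206 to 12836 normalised reads in Emcn-/- libraries, against 8227, 3933 and 6509 in Emcn+/+ replicates 1, 2 and 3. Ciliary body and iris markers (8 of 10 in the table) summed to 8888 to 9743 in Emcn-/- libraries, against 7767, 6135 and 8518 in Emcn+/+ replicates 1, 2 and 3. Krt12, the corneal epithelium keratin, had 2 to 6 reads in Emcn-/- libraries and 1 to 3 reads in Emcn+/+ libraries, and 0 of the 5 cornea genes in the table were highest in Emcn+/+ replicate 1. The part of lens tissue in these values was not tested. A larger share of cells of a type and more RNA per cell cannot be told apart in whole-retina RNA.

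The ratio to Mip, a gene of lens fibres, put Cryab apart from the other crystallins. Both genes of a ratio are counted in the same library, so scaling cancels, and exact 95% binomial intervals cover counting error only. Mip was not in a fixed proportion to the summed gamma crystallins. It had 0.556, 0.9 and 0.165 reads per gamma read in Emcn-/- libraries, against 0.324 (0.309 to 0.339) in Emcn+/+ replicate 1. In Emcn+/+ replicate 2 it had 12 reads to 1 (interval from 1.78), and in replicate 3 it had 6 to 0. A ratio to Mip can therefore differ through either gene. Cryab had 44.8, 35.3 and 50.8 reads per Mip read in Emcn-/- libraries, against 3.84, 45.5 and 121.5 in Emcn+/+ libraries. The interval in Emcn+/+ replicate 1 was 3.66 to 4.02, and the lowest bound in any other library was 22.2. Thus Mip-rich Emcn+/+ replicate 1 had the least Cryab per Mip, by a margin beyond counting error.

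Cryaa went the other way. It had 1.53, 1.56 and 4.94 reads per Mip read in Emcn-/- libraries, against 8.51, 0.667 and 0.833 in Emcn+/+ libraries. The interval of Emcn+/+ replicate 1 (8.16 to 8.89) lay above those of all other libraries but Emcn-/- replicate 3, whose interval was 2.96 to 8.72. Cryba1, Cryba2, Crybb2 and Crygs also had their highest ratio in Emcn+/+ replicate 1. Their ratios there were 4.92, 1.66, 3.88 and 2.25, against highest values elsewhere of 2.50, 0.833, 1.89 and 1.44. Of these, only Cryba1 had an interval there (4.71 to 5.15) above those of all other libraries. The intervals of Cryba2 and Crybb2 overlapped those of Emcn+/+ replicate 3, which reached 2.81 and 3.74. The interval of Cryba2 (1.575 to 1.748) also overlapped that of Emcn-/- replicate 3, which reached 1.751. That of Crygs overlapped the interval of Emcn-/- replicate 3, which reached 2.80. Cryba4, Crybb1 and Crybb3 had ratios of 1.22, 1.31 and 2.00 in Emcn+/+ replicate 1. Those of Cryba4 and Crybb1 lay within the range of the other libraries (0.267 to 1.22 and 0.75 to 1.89), and that of Crybb3 was level with the lowest of the others (2.00 to 5.17).

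**Figure D2:**
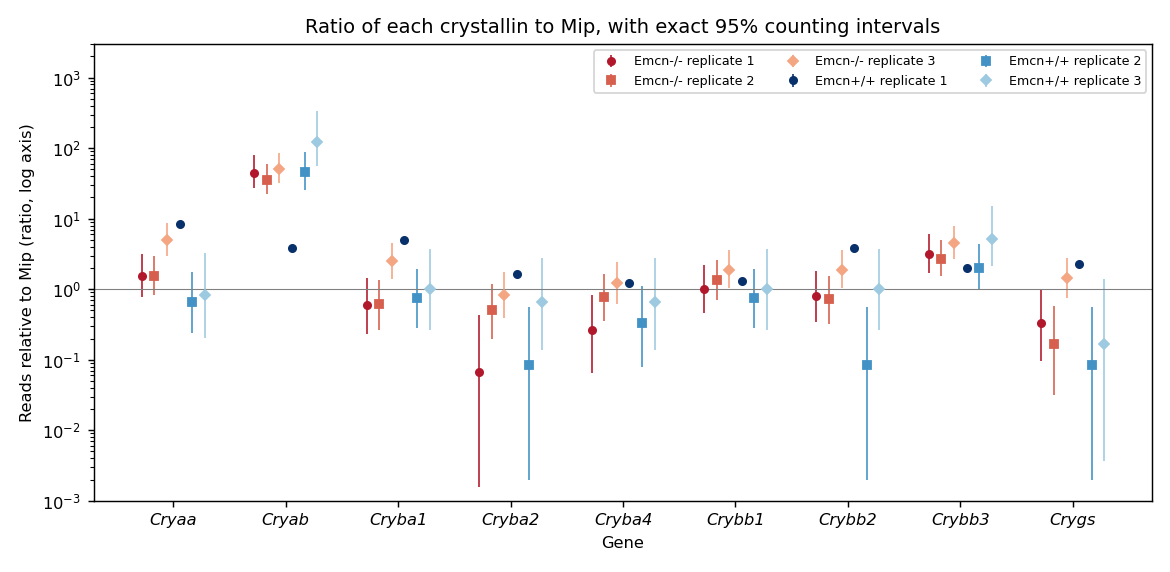
Reads of each crystallin per Mip read (log axis) in each library, with exact 95% counting intervals as bars and Emcn-/- left of Emcn+/+. Cryab is the only gene whose ratio in Emcn+/+ replicate 1 (3.84) lies more than 9 times below every other library; the other ratios there lie between 1.22 and 8.51.

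None of the 9 ratios differed between the genotypes by more than the spread of the libraries. The difference in mean log2 ratio, Emcn-/- minus Emcn+/+, ran from -0.67 for Cryba1 to 0.64 for Cryab, with two-sided exact permutation p from 0.3 to 1 (n = 3 each; adjusted p = 1 for all 9). The smallest p that 3 libraries against 3 allow is 0.1. Without Emcn+/+ replicate 1, the Cryab difference was -0.78 and the Cryaa difference 1.61 (exact permutation p = 0.4 and 0.2, n = 3 and 2), where 0.2 is the smallest p that 3 libraries against 2 allow.

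The levels of the other libraries can be read as a percentage of those in Emcn+/+ replicate 1. Many of these percentages rest on few reads. Cryab stood at 7.10%, 7.15% and 9.17% in Emcn-/- libraries and at 5.49% and 8.63% in Emcn+/+ replicates 2 and 3. Crybb3 stood at 0.953%, 1.06% and 1.56% in Emcn-/- libraries and at 0.463% and 0.705% in those Emcn+/+ libraries. Mip stood at 0.608%, 0.777% and 0.692% in Emcn-/- libraries and at 0.463% and 0.273% in Emcn+/+ replicates 2 and 3. Cryaa was lower, at 0.109%, 0.142% and 0.402% in Emcn-/- libraries and at 0.0362% and 0.0267% in Emcn+/+ replicates 2 and 3. The summed gamma crystallins Cryga to Crygf stood at 0.354%, 0.279% and 1.36% in Emcn-/- libraries, against 0.0125% and 0% in Emcn+/+ replicates 2 and 3. The last 2 values rest on 1 and 0 reads, and a count of 0 allows up to 3 reads.

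**Figure D3:**
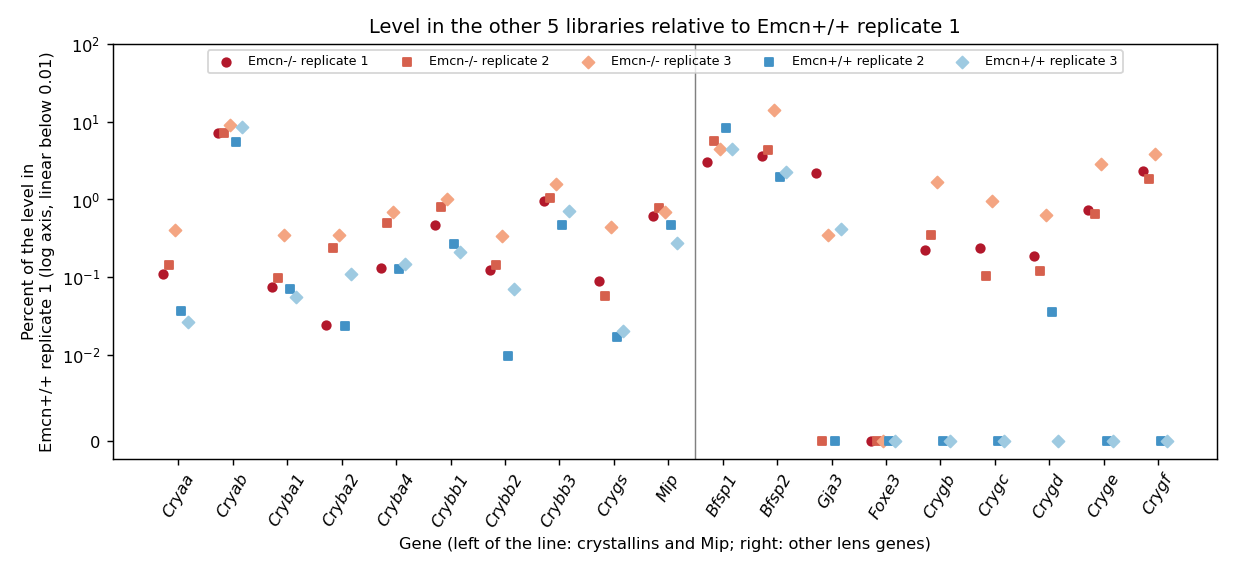
Level of each gene in the 5 other libraries as a percentage of its level in Emcn+/+ replicate 1 (log axis, linear below 0.01), with the 10 genes of the set left of the line and other lens genes right of it. Cryab lies at 5.49% to 9.17% in all 5 libraries, while Cryaa, Crygs and Crygb to Crygf lie below 0.05% or at 0 in Emcn+/+ replicates 2 and 3, where counts are 0 to 8 reads.

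The comparison of the genotypes asked whether loss of endomucin changed these genes. It found no call in either direction, and the direction of all tested members turned on Emcn+/+ replicate 1. Of the 10 genes, 8 passed the filter on low values and were tested with all genes. Cryba2 and Crygs did not pass it. Cryaa, Cryba1, Cryba4, Crybb1 and Crybb2 had fewer than 10 reads in both Emcn+/+ replicates 2 and 3, so they passed through Emcn-/- libraries and Emcn+/+ replicate 1, and counts over the 8 are a description. With limma on log2(value + 1) and all 6 libraries, 0 of the 8 were called at an adjusted p of 0.05, against 0.00599% of 16681 genes (1 gene, Emcn), and 8 of 8 had negative log2 fold changes, where 52% of all genes were above 0. Their median was -1.49, beside 0.0075 for all tested genes. Of all genes 3.67% were higher and 4.47% lower at an unadjusted p under 0.05, and 0 of the 8 were among them. edgeR on recovered reads gave log2 fold changes from -7.55 for Cryba1 to -2.29 for Cryab, with 8 of 8 lower at an unadjusted p under 0.05, as were 5.19% of all genes, and 0 of 8 called (adjusted p 0.506 to 0.575).

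Cryaa averaged 44.6 ± 32.8 normalised reads in Emcn-/- libraries and 6827 ± 11814 in Emcn+/+ libraries (SD, n = 3 each), with a log2 fold change of -1.42 ± 2.60 (SE, limma adjusted p = 0.906). Cryab averaged 719.9 ± 109 in Emcn-/- libraries and 3508 ± 4949.9 in Emcn+/+ libraries, with a log2 fold change of -1.12 ± 0.88 (limma adjusted p = 0.752). Mip averaged 16.6 ± 2.03 in Emcn-/- libraries and 807 ± 1383 in Emcn+/+ libraries, with a log2 fold change of -1.78 ± 1.81 (limma adjusted p = 0.808). In each case the Emcn+/+ SD exceeded the Emcn+/+ mean because 1 of the 3 libraries held most of the reads (for Cryab 8891, against 546 and 729).

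Without Emcn+/+ replicate 1 all 8 tested genes had positive log2 fold changes, as did 51.3% of all genes, and 0 of 8 passed. Their median was 1.13, beside 0.0047 for all genes. Cryaa had the largest, 2.40 ± 0.54 (SE, limma adjusted p = 0.396; 3 against 2 libraries), followed by Crybb2 with 2.25 ± 0.69 (0.575) and Crybb1 with 1.49 ± 0.42 (0.522), all limma adjusted p. Mip had 0.88 ± 0.40 (limma adjusted p = 0.766), and Cryab had the smallest, 0.17 ± 0.19 (limma adjusted p = 0.912). The Emcn+/+ side of that fit was replicates 2 and 3. Replicate 3 itself stood over 10 times above every other library in 12 genes (0.0874%), among them Xist and Ifit1. In that fit limma called 0 of all genes, with 3.54% higher and 3.21% lower at an unadjusted p under 0.05. Cryaa, Crybb1, Crybb2 and Crybb3, 4 of the 8, were among those higher. DESeq2 on the same 5 libraries put 1 of the 8, Cryaa, under the threshold (log2 fold change 2.78 ± 0.73, DESeq2 adjusted p = 0.0352), as it did 0.444% of all genes, and edgeR put 0 of 8 there (Cryaa adjusted p = 0.464). Among these 5 libraries Cryaa, Cryba1, Cryba4, Crybb1 and Crybb2 reached 10 reads in Emcn-/- libraries only, so the filter favours a difference in that direction and their p-values are given as a description, not as calls.

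**Figure D4:**
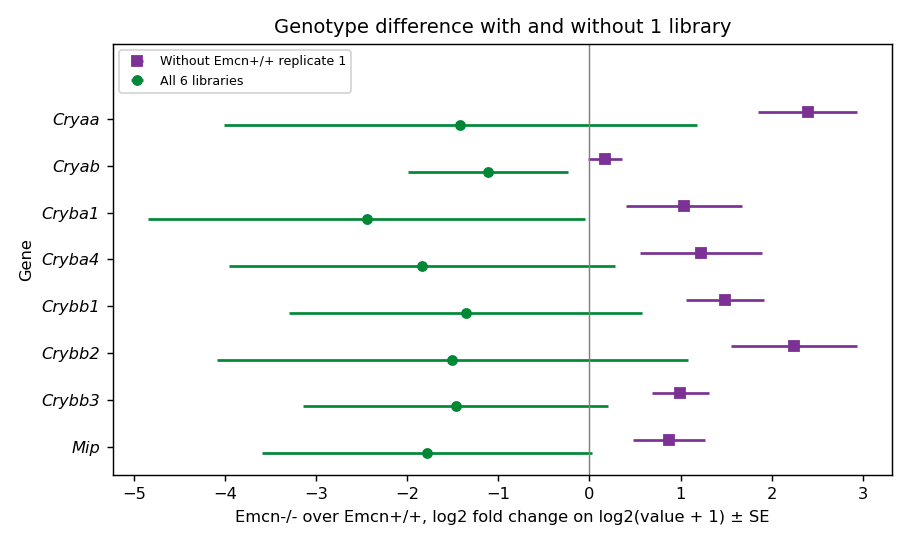
Log2 fold change of Emcn-/- over Emcn+/+ on the log2(value + 1) scale (points) with its SE (bars) for the 8 tested genes, from limma with all 6 libraries and without Emcn+/+ replicate 1. All 8 points lie left of 0 with all libraries, from -2.45 to -1.12, and right of 0 without that library, from 0.17 to 2.40.

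In the values themselves, 7 of the 10 genes were higher in all 3 Emcn-/- libraries than in both remaining Emcn+/+ libraries, as were 12.3% of all tested genes, and 0 of the 10 were lower in that way, as were 10.8% of all tested genes. With all 6 libraries the genotypes overlapped in 10 of 10, while they did not overlap in 14.4% of tested genes. The exceptions without Emcn+/+ replicate 1 were Cryab, Cryba2 and Cryba4. Of the 7, Crygs was not tested, so it is not among the genes behind the 12.3%. Cryaa, Cryba1, Crybb1 and Crybb2 passed the filter only through Emcn-/- libraries and Emcn+/+ replicate 1. The filter thus favours this direction, and the 7 of 10 are given as a description. The ratio of means was 6.92 for Cryaa, 3.17 for Crybb1, 2.04 for Crybb3 and 1.11 for Cryab. Several of these rest on few reads, such as 9 and 11 reads of Cryba1 in Emcn-/- replicates 1 and 2 against 9 and 6 reads in Emcn+/+ replicates 2 and 3. Emcn-/- replicate 3 was the highest of these 5 libraries for 9 of the 10 genes, all but Mip.

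The sample titles fall into a lower and an upper number series, and both genotypes occur in each. In the upper series, with 1 library per genotype, all 10 genes were higher in Emcn-/- replicate 3 than in Emcn+/+ replicate 3, as were 50.6% of tested genes. In the lower series all 10 were below Emcn+/+ replicate 1 in both Emcn-/- libraries, and all 10 were above Emcn+/+ replicate 2 in both by normalised reads, as were 38.4% of tested genes. For Cryba1, Cryba2 and Cryba4, 3 of the 10, Emcn-/- replicate 1 and Emcn+/+ replicate 2 held equal reads (9, 1 and 4), and only the scaling sets their order. Cryba2 and Crygs are not among the tested genes. Cryab was 846 in Emcn-/- and 796 in Emcn+/+ in the upper series, and 654 and 659.7 in Emcn-/- against 9221 and 506 in Emcn+/+ in the lower one.

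The sums of pigment epithelium and of ciliary body and iris markers given above did not overlap between the genotypes and were higher in Emcn-/- libraries. The lack of overlap was not particular to those tissues: the sum of 9 rod markers was also higher in Emcn-/- libraries without overlap. All 9 of 9 rod markers had positive log2 fold changes. The sizes differed, with a median log2 fold change of 0.097 for rod markers. It was 0.82 for pigment epithelium markers and 0.57 for ciliary body and iris markers. Of the pigment epithelium markers 12 of 12 tested had positive log2 fold changes. The melanin enzyme gene Dct, with the smallest p of that list, had 1691, 2452 and 3165 in Emcn-/- libraries and 1503, 767 and 1139 in Emcn+/+ libraries (limma adjusted p = 0.400). Of the ciliary body and iris markers 8 of 8 tested were positive, among them the collagen gene Col9a1 (log2 fold change 0.54, limma adjusted p = 0.374). None of these 20 genes was called. The part of these tissues in the crystallin values was not tested.

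Cryab is also a heat shock protein of stressed cells, and its values are set here beside those of reactive glia genes. The 15 genes of retinal stress and reactive glia summed to 10996, 10938 and 16315 normalised reads in Emcn-/- libraries, against 9037, 9766 and 21584 in Emcn+/+ libraries. The 2 libraries with the highest sums, Emcn-/- replicate 3 and Emcn+/+ replicate 3, had the highest Cryab of the 5, and Emcn+/+ replicate 2 was lowest in both. Those 2 are also the libraries of the upper number series, so number series and stress sum cannot be told apart here. Emcn+/+ replicate 1 had the lowest stress sum of all 6 and the highest Cryab. In that list 6 of 14 tested genes had positive and 8 negative log2 fold changes, and 0 were called. Vim, the glial intermediate filament gene with its highest mean, had a log2 fold change of -0.0025 (limma adjusted p = 0.998), and Mt1, a metallothionein with its smallest p, had 0.42 (limma adjusted p = 0.658). The part of glial reactivity in Cryab was not tested.

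Of 14 small heat shock proteins and chaperones, 3 had their highest level in Emcn+/+ replicate 1, and 0 were more than 2 times higher there than in any other library. The 3 were the small heat shock protein genes Hspb1, Hspb2 and Hspb3, of which Hspb1 and Hspb3 were picked after their values were seen. Hspb1 had 51.6, 40.5 and 68.4 normalised reads in Emcn-/- libraries, against 76.7, 38.0 and 52.4 in Emcn+/+ libraries. Hspb2 had 4.87, 1.04 and 7.39 in Emcn-/- libraries, against 11.4, 5.56 and 3.28 in Emcn+/+ libraries. Hspb3 had 2.77 to 4.87 in Emcn-/- libraries, against 6.22, 3.71 and 4.37 in Emcn+/+ libraries. These are small excesses beside that of Cryab, at most 1.54 times the highest other library. The sum of the list, most of it Hsp90aa1 and Hspa8, was 51029 to 59174 normalised reads in Emcn-/- libraries and 50644 to 58126 in Emcn+/+ libraries, and 0 of 12 tested were called. Hsp90aa1, the main stress-inducible cytosolic chaperone of that family and the highest of the list, had a log2 fold change of 0.07 (limma adjusted p = 0.821), and Hspe1, a mitochondrial chaperonin, had 0.16 (limma adjusted p = 0.646).

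Of 11 transcription factors known for crystallin genes, 8 had their highest level in Emcn+/+ replicate 1. Of these 8, 3 (Foxe3, Sox1 and Pitx3) were more than 2 times higher there than in any other library. Pax6, which retinal neurons also use and the highest of the list, had 3120, 3134 and 2944 normalised reads in Emcn-/- libraries and 3386, 3037 and 2623 in Emcn+/+ libraries. It had a log2 fold change of 0.03 (limma adjusted p = 0.939), and 0 of the 8 tested factors were called. Of 8 crystallin relatives outside the lens set, 2 had their highest level in Emcn+/+ replicate 1. Crym, a thyroid hormone binding protein named for its role as a crystallin in marsupial lenses, had 1507, 1817 and 2396 normalised reads in Emcn-/- libraries and 1401, 1635 and 3443 in Emcn+/+ libraries. Crybg3 had the smallest p of those relatives (log2 fold change -0.27, limma adjusted p = 0.522), and 0 of 7 tested were called. Crygn, a gamma crystallin of retina and lens, was the 1 relative more than 2 times higher in Emcn+/+ replicate 1.

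Among tested genes outside the set with a mean of at least 20 normalised reads, those most like the mean profile of the beta crystallins and Mip over the 6 libraries were Cemip, Coq2, Jakmip2, Ppif and Lix1 (Pearson r 0.977 to 0.992). Those most like Cryab were Jakmip2, Cemip, Prkd3, Coq2 and Fabp5 (r 0.976 to 0.989). Each r is set mainly by 1 library, and the changes were small: Coq2 was 1.08 times and Lix1 2.54 times the highest other library. Since the libraries split into 1 and 5 in Mip, no correlation of the crystallins with Mip was computed across them.

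**Figure D5:**
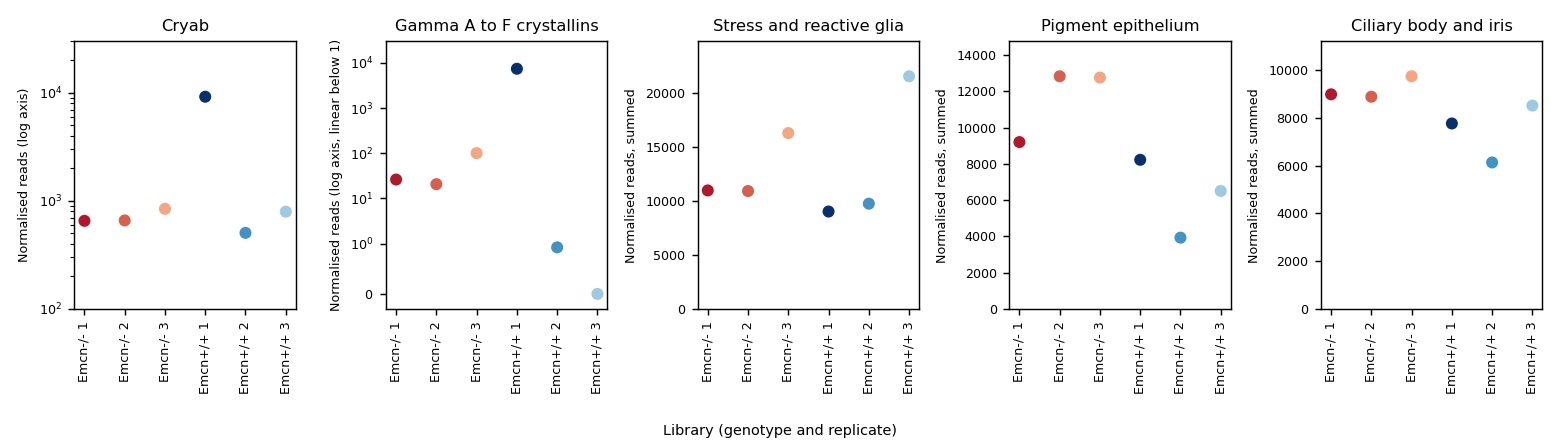
Normalised reads per library, Emcn-/- left of Emcn+/+, for Cryab and the summed gamma crystallins (log axes) and for the summed markers of stress and reactive glia, pigment epithelium, and ciliary body and iris (linear axes from 0). Emcn+/+ replicate 1 is the highest library for Cryab and the gamma crystallins (9221 and 7431) and the lowest for stress and reactive glia (9037).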

How the data were processed

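Poly-A RNA was sequenced from 1.3 µg of RNA per retina library, per the labels' protocols, with the genome build GRCm38, per the submitters' processing notes. The sources used here do not name the aligner, counter or annotation. The deposited signal is a table of normalised reads per gene, not whole numbers. Within a library, 100% of values divided by 1 step gave whole numbers (tolerance 0.001 of a read), so read counts were recovered that way, and the inverse steps matched median-ratio size factors. Of 28627 gene IDs, 27390 were in GENCODE M21.

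Genotypes were compared with limma 3.58.1 (R 4.3.3), its trend option on and values as log2(value + 1), Benjamini-Hochberg adjustment and an adjusted p under 0.05. Such fold changes understate the change of low genes. The 16681 genes tested had passed edgeR's expression filter (minimum count 10). It was run once on all 6 libraries and kept for the fits with 1 library left out, so Emcn+/+ replicate 1 counted towards it there too. edgeR 4.0.16 and DESeq2 1.42.0 on recovered reads were alternatives; they called 1 and 82 genes. By its outlier rule DESeq2 gives no p to 29 genes, which are the last 29 of the deposited table and include all 10 genes described here. On counts simulated for this comparison over 16681 genes, limma found 75% of the changes of 2-fold and 96% of those of 4-fold, and made 11 false calls. The simulated libraries of a genotype shared 1 mean per gene, and none stood apart as Emcn+/+ replicate 1 does. These shares therefore need not hold for the real libraries or for the genes described here. Ratios were tested with exact permutation tests over libraries. The genes and 11 lists of markers (lens, crystallin relatives, crystallin factors, chaperones, stress and reactive glia, rods, Müller glia, astrocytes, pigment epithelium, ciliary body and iris, cornea) were chosen with earlier results of these data known. Of the lists, the rods (9 of 9 positive), Müller glia (4 of 9), astrocytes (4 of 5) and cornea (1 of 1 tested) had 0 genes called.

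Genes named were the 10, Emcn, Hspb2, the member of each list with the highest mean and that with the smallest p, and the 5 genes most like each of 2 profiles. In the lists not described in the report these include Cnga1, Glul and Abca8a, Aldoc, and Clu. Some genes that the rule names are not reported here. Replicate numbers follow sample order and pair nothing. A count of 0 allows up to 3 reads, or 2.77 to 3.28 normalised reads, counting error only.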

Additional observations from a re-analysis of the deposited data

How the results depend on the processing

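No paired analysis was possible because the replicate numbers only follow sample order; a block for the 2 runs of numbers among sample titles changed no direction and no call. With TMM scaling, no filter, pseudocounts of 0.5 or 5, or edgeR, the tested genes kept their negative sign and were not called. Genes called over all genes were 1 in the limma fit, 82 with DESeq2 (15 higher, 67 lower) with or without its outlier rule, 0 to 151 with 1 library left out (151 without Emcn+/+ replicate 3; 0 without Emcn-/- replicate 1 or Emcn+/+ replicates 1 or 2) and 74 with DESeq2 without Emcn+/+ replicate 1. Leaving out Emcn+/+ replicate 1 turned the direction of all 8 tested genes. The fits of edgeR and DESeq2 without Emcn+/+ replicate 1 were chosen after seeing the data, as was DESeq2 without its outlier rule. Of the 8, 0 were called with any library left out in limma, and 1 (Cryaa, which passed the filter there only through Emcn-/- libraries) with DESeq2 without Emcn+/+ replicate 1.

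Log2 fold changes over the limma fits with 1 library left out ranged from -3.42 to 2.40 for Cryaa, -1.92 to 0.17 for Cryab, -4.27 to 1.04 for Cryba1, -3.42 to 1.22 for Cryba4, -2.86 to 1.49 for Crybb1, -3.87 to 2.25 for Crybb2, -2.85 to 1.00 for Crybb3 and -3.28 to 0.88 for Mip. Without Emcn+/+ replicate 1, edgeR and DESeq2 gave 2.76 and 2.78 for Cryaa, 0.15 and 0.14 for Cryab, 1.46 and 1.46 for Cryba1, 1.66 and 1.68 for Cryba4, 1.64 and 1.66 for Crybb1, 2.38 and 2.38 for Crybb2, 1.04 and 1.03 for Crybb3, and 0.88 and 0.89 for Mip. The log2 ratio to Mip, Emcn-/- minus Emcn+/+, ranged with 1 library left out from -0.23 to 1.61 for Cryaa, -0.78 to 1.71 for Cryab, -1.35 to 0.17 for Cryba1, -1.80 to 0.51 for Cryba2, -0.51 to 0.59 for Cryba4, -0.94 to 1.83 for Crybb2 and -0.51 to 1.87 for Crygs; with the summed lens fibre genes as denominator that of Cryba4 was 0.024. The log2 ratio to Mip stayed positive with 1 library left out for Crybb1 (0.22 to 0.68) and Crybb3 (0.07 to 0.75). Lim2, planned for the sum of lens fibre genes, was not used here, and the correlation with Mip was not run. At 1 to 26 reads, Cryba2 and Crygs levels outside Emcn+/+ replicate 1 are limited by depth.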
